A study of Mus musculus with 4 samples.

Results

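The genes described here are the G1 cyclins, their cyclin-dependent kinases (CDKs) and the CIP/KIP CDK inhibitors, measured by RNA-seq in cerebral cortex taken from mouse embryos at embryonic day 15 (E15). They were chosen by symbol: Ccnd1, Ccnd2, Ccnd3, Ccne1, Ccne2, Cdk4, Cdk6, Cdkn1a, Cdkn1b and Cdkn1c. All 10 were among the 13289 genes analysed, and all 10 passed the filter on low counts. The series compares 2 control libraries, titled WT, with 2 libraries titled Lhx2cKO, read here as a conditional knockout of the LIM-homeodomain factor Lhx2 and called Lhx2 cKO. The labels give polyadenylated RNA from fresh brain for all 4 libraries. They do not give the strain, the Cre driver, the floxed allele, the litter or sex of the embryos, or whether tissue was pooled, so the p-values measure the spread between these libraries, which may in part be technical.

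A cell leaves G1 and begins DNA replication once CDK activity has inactivated the retinoblastoma family of pocket proteins and released the E2F transcription factors. D-type cyclins pair with CDK4 and CDK6 and act early in G1, while E-type cyclins pair with CDK2 and act at the entry to S phase. The INK4 proteins inhibit CDK4 and CDK6 alone, and the CIP/KIP proteins encoded by Cdkn1a, Cdkn1b and Cdkn1c bind cyclin-CDK complexes more widely. In the embryonic cortex the length of G1 in radial glia and intermediate progenitors is linked to the choice between further division and neuron production, and Cdkn1b and Cdkn1c are known for their part in cell cycle exit and in early neurons.

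Total counts ranged from 22294237 to 24609627 per library, so that 3 counts, taken as the floor of detection, corresponded to 0.122 to 0.135 CPM, the unit of counts scaled to the TMM-adjusted library total. The summed level of 6 neuron markers was 4170 to 4670 CPM over the 4 libraries. Among them the cortical neuron markers Tbr1, at 239 to 256 CPM, and Neurod6, at 483 to 625 CPM, were present in each library. Lhx2 was at 316 and 287 CPM in control and at 239 and 247 CPM in Lhx2 cKO. The Lhx2 cKO libraries therefore held 80.7% of the control transcript. The log2 fold change was -0.31 (SE 0.0976), and edgeR's quasi-likelihood test gave an adjusted p of 0.0191. Without control 1 the adjusted p was 0.176, without Lhx2 cKO 1 it was 0.102 and without Lhx2 cKO 2 it was 0.0538. Which exons were deleted is not given in the labels, so reads from a truncated transcript cannot be told apart from reads of an intact one.

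The promoters of 4 of the 5 members that were lower in Lhx2 cKO are shown with those of Cdkn1a, the one member that was higher, because these genes moved in opposite directions within 1 regulatory circuit. RefSeq promoter sequences of the build GRCm38.p6 were matched for 6 of the 10 members, with 8 transcription starts. The 250 bases upstream of each start are printed 5′ to 3′ on the strand of the gene. Capitals mark the GC box GGGCGG, the CCAAT box, the TATA box TATAAA and the E-box CACGTG, each in either orientation, and the decamer consensus of p53, which reads alike on both strands.
Cdk6 (chr5:3343643-3343892, plus strand): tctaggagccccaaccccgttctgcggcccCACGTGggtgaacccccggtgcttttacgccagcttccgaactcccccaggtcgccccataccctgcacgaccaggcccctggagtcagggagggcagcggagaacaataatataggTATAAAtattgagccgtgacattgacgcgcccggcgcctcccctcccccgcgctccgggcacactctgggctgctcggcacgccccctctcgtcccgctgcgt
Cdk4 (chr10:127063285-127063534, plus strand): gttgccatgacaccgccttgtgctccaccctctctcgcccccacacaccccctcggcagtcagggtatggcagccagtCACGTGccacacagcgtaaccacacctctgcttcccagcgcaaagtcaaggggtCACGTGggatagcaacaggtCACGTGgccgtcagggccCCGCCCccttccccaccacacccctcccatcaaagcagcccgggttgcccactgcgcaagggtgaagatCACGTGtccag
Ccne1 (chr7:38107491-38107740, minus strand): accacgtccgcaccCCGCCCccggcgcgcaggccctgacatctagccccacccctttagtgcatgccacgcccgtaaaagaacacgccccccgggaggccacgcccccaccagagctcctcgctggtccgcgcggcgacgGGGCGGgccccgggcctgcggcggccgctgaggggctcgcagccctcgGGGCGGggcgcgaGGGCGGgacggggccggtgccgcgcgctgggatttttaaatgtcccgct
Cdkn1b (chr6:134920151-134920400, plus strand): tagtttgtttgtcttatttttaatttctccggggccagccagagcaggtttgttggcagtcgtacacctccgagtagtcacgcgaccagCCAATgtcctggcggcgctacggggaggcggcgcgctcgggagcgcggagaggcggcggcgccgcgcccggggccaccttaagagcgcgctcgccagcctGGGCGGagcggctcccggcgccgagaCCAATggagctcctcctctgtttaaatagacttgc
Cdkn1a, upstream start (chr17:29090729-29090978, plus strand): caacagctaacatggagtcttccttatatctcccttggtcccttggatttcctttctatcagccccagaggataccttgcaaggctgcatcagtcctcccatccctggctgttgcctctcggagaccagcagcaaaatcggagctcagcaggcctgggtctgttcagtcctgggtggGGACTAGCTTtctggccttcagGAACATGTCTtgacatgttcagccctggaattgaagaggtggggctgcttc
Cdkn1a, downstream start (chr17:29093519-29093768, plus strand): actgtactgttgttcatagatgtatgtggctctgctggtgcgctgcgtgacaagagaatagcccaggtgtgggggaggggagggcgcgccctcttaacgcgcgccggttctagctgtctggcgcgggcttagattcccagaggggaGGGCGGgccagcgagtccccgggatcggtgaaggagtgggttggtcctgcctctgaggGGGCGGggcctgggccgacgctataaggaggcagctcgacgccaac

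The Cdk4 window held 4 copies of CACGTG, the E-box bound by Myc family factors, beginning 172, 118, 98 and 11 bases upstream of the start. This E-box was present in 6.02% of the 32851 RefSeq promoter windows of the same length, and at least 4 copies were present in 7 of them. The Cdk6 window held 1 E-box, 220 bases upstream, and the letters TATAAA, beginning 103 bases upstream, which 12.4% of all windows held. The Ccne1 window held 4 GC boxes, the sequence bound by Sp1 family factors. GC content there was 76%, beside a median of 52.4% over all windows. The Cdkn1b window held 1 GC box and a pair of CCAAT boxes, 161 and 35 bases upstream. Over all windows at least 1 GC box was found in 32.7% and at least 1 CCAAT box in 33.8%. The share with as many copies of these boxes was not computed. At the upstream start of Cdkn1a, a known target of p53, there were 2 p53 decamers, beginning 73 and 51 bases upstream, and a decamer was found in 7.13% of all windows. The decamer was searched for after the sequence had been read. No member window held TAATTA, a homeodomain core found in 4.84% of windows, or any of the E2F cores TTTGGCGC, TTTCCCGC, TTTGCCGC and TTTCGCGC, found in 1.86%. A match describes letters in the window and not a bound site.

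In Lhx2 cKO 5 of the 10 members were lower, namely Ccnd2, Ccne1, Cdk4, Cdk6 and Cdkn1b, and 1 was higher, namely Cdkn1a. Ccnd1, Ccnd3, Ccne2 and Cdkn1c did not pass the test. A gene counts as called here when its adjusted p in edgeR's quasi-likelihood test over all genes was under 0.05. Of all 13288 genes tested 20.8% were called, 9.17% lower and 11.6% higher. The median log2 fold change was -0.27 over the members and 0.003 over all genes tested. In the authors' deposited table the same 6 members had an adjusted p under 0.05, from 1.39e-31 for Cdk6 to 0.025 for Ccne1. The change column of the authors' deposited table marks Ccnd2, Ccne1, Cdk6 and Cdkn1b as down and Cdkn1a as up, and marks Cdk4, with a log2 fold change of -0.34 and an adjusted p of 0.0064 there, as NS. In bulk tissue, fewer cells of a type and less RNA per cell cannot be told apart.

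**Figure D1:**
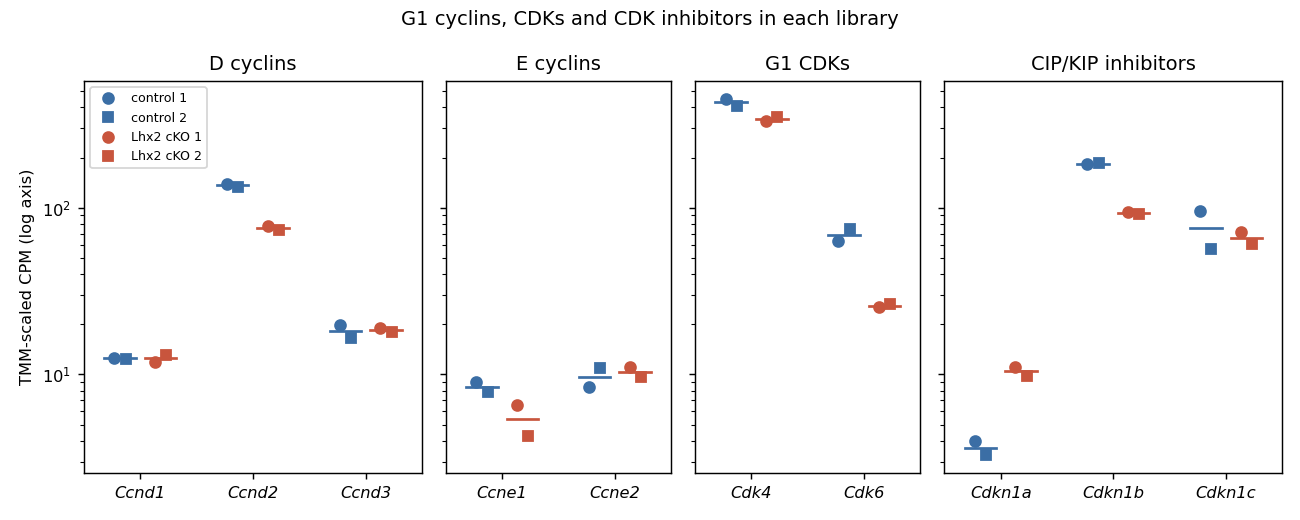
TMM-scaled CPM on a log axis for the 10 members, with 1 point per library and a line at the mean of each group. Both Lhx2 cKO libraries lie below both control libraries for Ccnd2, Ccne1, Cdk4, Cdk6 and Cdkn1b and above them for Cdkn1a. The groups overlap for Ccnd1, Ccnd3, Ccne2 and Cdkn1c. Of all genes tested 59.3% had groups that did not overlap, so a lack of overlap is common in these data.

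Among the D cyclins only Ccnd2 passed the test. Ccnd2 (ENSMUSG00000000184.13), the D cyclin known for its expression in cortical progenitors and its transport into their basal processes, was at 139 and 133 CPM in control and at 77.5 and 73.7 CPM in Lhx2 cKO. The groups lay far apart and the libraries within each were close. Mean levels were 136 ± 4.09 CPM in control and 75.6 ± 2.68 CPM in Lhx2 cKO (SD, n = 2), which left 55.6% of the control level. In edgeR this was a change of -0.85 on the log2 scale (SE 0.0956, adjusted p 4.76e-09). Ccnd1 (ENSMUSG00000070348.6), the D cyclin that many growth factor and Wnt signals induce, was at 12.6 and 12.4 CPM in control and at 11.9 and 13.1 CPM in Lhx2 cKO. Ccnd3 (ENSMUSG00000034165.17), the remaining D cyclin, was at 19.9 and 16.6 CPM in control and at 19 and 18 CPM in Lhx2 cKO. For both genes the Lhx2 cKO values straddled or lay within the control values. The 95% interval of the log2 fold change was -0.32 to 0.32 for Ccnd1 and -0.26 to 0.30 for Ccnd3, so the data do not exclude a change of up to about these sizes, but the fall of Ccnd2 lies outside both.

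The makeup of the D cyclin pool differed between the groups. To compare levels between genes, counts were divided by the deposited gene length and expressed as RPKM, read counts scaled by library total and length. Shares and orders of genes by RPKM depend on that length, which may differ from that of the transcripts present. Ccnd2 made up 74.9% and 75.8% of the summed D cyclin RPKM in control and 63.7% and 61.9% in Lhx2 cKO. The share of Ccnd1 was 13.6% and 14.1% in control, against 19.6% and 21.9% in Lhx2 cKO, and that of Ccnd3 was 11.5% and 10.1% against 16.8% and 16.2%. The summed D cyclin RPKM was 19.7 and 18.7 in control, against 12.9 and 12.7 in Lhx2 cKO. Ccnd2 thus remained the most abundant D cyclin in each library. With 2 libraries against 2 an exact permutation test of such a share cannot go below p = 0.33, so these shares carry no test.

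Both G1 kinases were lower, and the 95% intervals of their log2 fold changes did not overlap, at -1.62 to -1.19 for Cdk6 and -0.54 to -0.13 for Cdk4. Cdk6 (ENSMUSG00000040274.12), a kinase partner of the D cyclins, was at 62.9 and 74.1 CPM in control and at 25.4 and 26.4 CPM in Lhx2 cKO. Each Lhx2 cKO library was below each control library by a wide margin. Mean levels were 68.5 ± 7.9 CPM in control and 25.9 ± 0.752 CPM in Lhx2 cKO (SD, n = 2), a fall to 37.8% of control. The log2 fold change was -1.40 (SE 0.108, edgeR adjusted p 1.61e-13). It was the only member lowered by at least 2-fold, a size that 3.36% of all genes tested reached with a call in either direction. Cdk4 (ENSMUSG00000006728.13), the other kinase partner of the D cyclins, was at 450 and 409 CPM in control and at 332 and 350 CPM in Lhx2 cKO. The groups did not overlap, as was the case for 59.3% of all genes tested. Its mean was 430 ± 28.9 CPM in control and 341 ± 12.7 CPM in Lhx2 cKO (SD, n = 2), or 79.2% of control. On the log2 scale the change was -0.34 (SE 0.101, edgeR adjusted p 0.0134). That call was lost without control 1 (adjusted p 0.142) and without Lhx2 cKO 1 (adjusted p 0.089).

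Per length, Cdk4 far exceeded Cdk6 in every library, and the gap was wider in Lhx2 cKO. The ratio of Cdk4 to Cdk6 RPKM was 30.8 and 23.8 in control, against 56.3 and 57 in Lhx2 cKO, a difference that carries no test. Cdk6 made up 3.14% and 4.03% of the summed RPKM of both kinases in control and 1.75% and 1.73% in Lhx2 cKO. The length deposited for Cdk6, 13989 bases, is the longest among the members, and its RPKM would be understated if shorter transcripts prevailed in this tissue, whereas the change of the ratio between groups does not depend on a length that is the same in each library.

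Of the E cyclins Ccne1 passed the test and Ccne2 did not, and the difference between their changes was not tested. Ccne1 (ENSMUSG00000002068.17), an activator of CDK2 at the entry to S phase, was at 8.95 and 7.84 CPM in control and at 6.55 and 4.27 CPM in Lhx2 cKO. The groups did not overlap, but the Lhx2 cKO libraries were farther apart than the groups were at their nearest. Its mean was 8.4 ± 0.783 CPM in control and 5.41 ± 1.61 CPM in Lhx2 cKO (SD, n = 2). On the log2 scale the change was -0.63 (SE 0.214, edgeR adjusted p 0.0295). Lhx2 cKO 2 weighed heavily in this value. Without that library the log2 fold change was -0.36 (adjusted p 0.425), without control 1 it was -0.55 (adjusted p 0.171), and with DESeq2 on all libraries the adjusted p was 0.0888. Ccne2 (ENSMUSG00000028212.17), the second E cyclin, was at 8.41 and 11 CPM in control and at 11.1 and 9.66 CPM in Lhx2 cKO, with a 95% interval of the log2 fold change from -0.26 to 0.45. The ratio of Ccne1 to Ccne2 RPKM was 1.4 and 0.936 in control, against 0.776 and 0.58 in Lhx2 cKO, so that Ccne2 was the more abundant of the pair per length in both Lhx2 cKO libraries and in control 2.

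Of the 3 CIP/KIP inhibitors, Cdkn1b fell, Cdkn1a rose and Cdkn1c did not pass the test. Cdkn1b (ENSMUSG00000003031.15), which encodes the inhibitor p27Kip1, was at 182 and 186 CPM in control and at 94 and 91.8 CPM in Lhx2 cKO. These were among the closest replicates of any member. Mean levels were 184 ± 2.66 CPM in control and 92.9 ± 1.59 CPM in Lhx2 cKO (SD, n = 2), a fall to 50.4% of control. The log2 fold change was -0.99 (SE 0.0945, edgeR adjusted p 7.55e-11). Cdkn1a (ENSMUSG00000023067.15), which encodes the inhibitor p21Cip1 that p53 induces after DNA damage, was at 4 and 3.28 CPM in control and at 11.1 and 9.84 CPM in Lhx2 cKO. These levels rest on 97 and 82 reads in the control libraries and on 253 and 226 reads in the Lhx2 cKO libraries, well above the floor. Mean levels were 3.64 ± 0.509 CPM in control and 10.5 ± 0.906 CPM in Lhx2 cKO (SD, n = 2), a 2.88-fold rise. The log2 fold change was 1.52 (SE 0.211, edgeR adjusted p 4.26e-07).

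Cdkn1c (ENSMUSG00000037664.14), an imprinted gene expressed from the maternal allele that encodes the inhibitor p57Kip2, was at 95 and 56.9 CPM in control and at 71.2 and 60.6 CPM in Lhx2 cKO. Both Lhx2 cKO libraries lay between the control libraries, which were far apart. The log2 fold change was -0.20 with a 95% interval from -0.47 to 0.06 and an adjusted p of 0.288 in edgeR. Its sign depended on the control library used: without control 1 the log2 fold change was 0.20 (adjusted p 0.323), and without control 2 it was -0.53 (adjusted p 0.000209). No direction is therefore given for Cdkn1c.

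Within the inhibitor family the share of Cdkn1b was lower in Lhx2 cKO and those of Cdkn1c and Cdkn1a were higher, again as values with no test. The ratio of Cdkn1c to Cdkn1b RPKM was 1.16 and 0.682 in control, against 1.69 and 1.48 in Lhx2 cKO. Cdkn1b made up 45.6% and 58.7% of the summed CIP/KIP RPKM in control and 35.2% and 38.3% in Lhx2 cKO. Cdkn1a made up 1.28% and 1.32% in control, against 5.33% and 5.26% in Lhx2 cKO, so it stayed a minor part of the family in transcript terms. The summed RPKM of the family was 87.8 and 69.7 in control, against 58.7 and 52.7 in Lhx2 cKO.

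**Figure D2:**
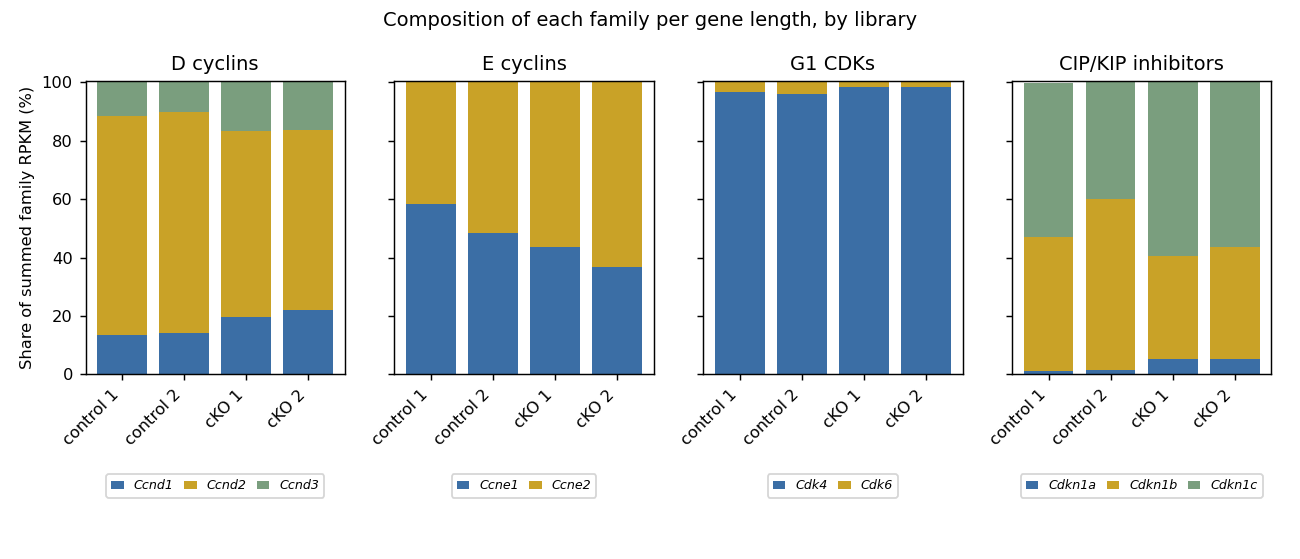
Share of each family's summed RPKM in percent, with 1 stacked bar per library. The share of Ccnd2 among D cyclins goes from 74.9% and 75.8% in control to 63.7% and 61.9% in Lhx2 cKO, and the share of Cdkn1a among CIP/KIP inhibitors from 1.28% and 1.32% to 5.33% and 5.26%.

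Ordered by RPKM in control, the members ran from Cdk4 at 139 and 126 through Cdkn1b at 40.1 and 40.9, Cdkn1c at 46.6 and 27.9, Ccnd2 at 14.8 and 14.2, and Cdk6 at 4.5 and 5.29, down to Cdkn1a at 1.13 and 0.923. Ccne1, Ccne2, Ccnd1 and Ccnd3 lay between Cdk6 and Cdkn1a, from 1.89 to 3.36 RPKM. Neighbours in this order whose control values overlapped were Cdkn1b with Cdkn1c, Ccne1 with Ccne2, and Ccne2 with Ccnd1. By the mean RPKM in Lhx2 cKO, Cdk6 was in the lowest place, at 1.81 and 1.89 RPKM, and Cdkn1a in place 6, at 3.13 and 2.77 RPKM. These places overlapped with others: both Cdk6 values lay within those of Ccne1, at 2.46 and 1.6 RPKM, and both Cdkn1a values within those of Ccne2, from 2.76 to 3.17 RPKM. Cdk4 stood at percentile 98.3 of the mean RPKM of all genes tested, and Cdkn1a at percentile 25.1.

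Progenitor markers moved in the same comparison, so each member was also set against them within each library. Calls over all genes tested were 9.17% lower and 11.6% higher. Of the 7 radial glia genes, Pax6 and Nes were called lower, with log2 fold changes of -1.24 and -0.40. The other 5 were not called and went both ways: Hes1 at -0.28, Sox2 at -0.11, Fabp7 at 0.16, Vim at 0.20 and Hes5 at 0.47. The summed radial glia level was 616 and 648 CPM in control and 597 and 572 CPM in Lhx2 cKO. Of the 5 intermediate progenitor genes 4 were called lower, with the smallest p for Eomes, at -1.66, and Neurog1, at -2.38, and their sum went from 482 and 478 to 257 and 264 CPM. Of 10 genes that mark S, G2 and M phases, 9 were called lower, with a median log2 fold change of -0.76, and Mki67, a marker of cycling cells, was at -0.87. Pcna, at -0.02, was the one not called. The call of Ccnb1 was lost in edgeR without control 2 (adjusted p 0.0749), and that of Mcm5 without control 1 (0.0958) and without Lhx2 cKO 2 (0.193).

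Relative to the mean log2 CPM of the radial glia genes, Cdk6 was 1.22 lower on the log2 scale in Lhx2 cKO, Cdkn1b 0.82 lower, Ccnd2 0.68 lower and Ccne1 0.48 lower, while Cdkn1a was 1.68 higher. Relative to the 10 cell cycle phase genes the same differences were smaller for the members that fell. Cdk6 was at -0.74, Cdkn1b at -0.33 and Ccnd2 at -0.19. Their groups did not overlap, but neither did those of the uncalled Ccnd1, Ccnd3 and Ccne2. How many of all genes lack overlap on this measure was not computed. Ccne1 was level with the cell cycle phase genes, and its groups overlapped. On this reference Cdk4 was 0.32 higher in Lhx2 cKO, against 0.16 lower relative to the radial glia genes. Ccnd1, Ccnd3 and Ccne2 were 0.65, 0.68 and 0.76 higher than in control relative to the cell cycle phase genes. The part of a change in progenitor number in the members' levels was not tested.

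**Figure D3:**
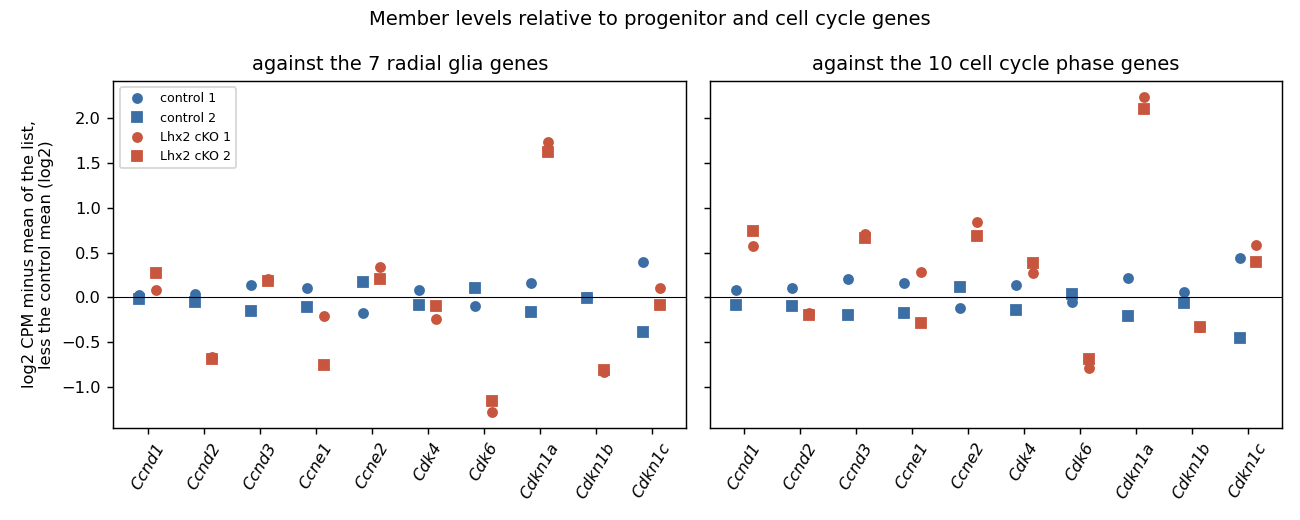
Log2 CPM of each member minus the mean log2 CPM of 7 radial glia genes (left) or 10 cell cycle phase genes (right), shifted so that the control mean is at 0, with 1 point per library. Cdk6 lies 1.22 below control on the left and 0.74 below on the right, Cdkn1a lies above control on both, and Cdk4 is below control on the left and above it on the right.

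Other genes of the G1/S pathway were taken from a list by role, of which 36 of 38 were analysed here. In edgeR's test 9 of the 36 were called lower and 1 higher, or 25% and 2.78%, beside 9.17% and 11.6% of all genes tested, and their median log2 fold change was -0.20. Cdkn2c, the INK4 inhibitor of CDK4 and CDK6 expressed in cycling cells, fell from 9.05 to 5.03 CPM (log2 fold change -0.85, SE 0.204, adjusted p 0.00192), and Cdkn2d, an INK4 inhibitor of postmitotic neurons, was at -0.05. Among the pocket proteins Rbl1, the gene for p107, passed narrowly at -0.43 (adjusted p 0.0493), while Rb1 at -0.22 and Rbl2 at -0.16 did not pass. The activator E2Fs E2f1, E2f2 and E2f3 were all called lower, at -0.33, -0.85 and -0.41, and none of the other 7 E2F and DP genes was called.

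Ccna2, the S phase cyclin that pairs with CDK2, was the one called gene among 7 CDK2, cyclin A and CDK-activating genes, at -0.49 (adjusted p 0.00674). Cdk2 itself, the partner of the E cyclins, was at -0.41 and just missed the threshold (adjusted p 0.0541). For the turnover of G1 regulators, Cul1, the scaffold of the SCF ubiquitin ligase, fell from 152 to 105 CPM (log2 fold change -0.53, adjusted p 4.87e-05), and Cks1b, the cofactor with which SCF-Skp2 recognises the Cdkn1b protein, was called lower at -0.54 (adjusted p 0.00365). Skp2 at -0.08 and Skp1 at 0.09 did not pass. Fbxw7, the SCF subunit that recognises cyclin E, was the one gene called higher, at 0.27 with an adjusted p of 0.0418. Of the Myc and p53 regulators, Mxd3, a Max partner found in S phase cells, was called lower at -0.73, while Mycn at -0.13, Myc at -0.19, Trp53 at -0.17 and Mdm2 at -0.22 did not pass.

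Of these 10 calls, those of Cdkn2c, Cul1 and Mxd3 held whichever library was left out. Without control 1 the calls of E2f1 (adjusted p 0.298), E2f2 (0.146), E2f3 (0.0603), Cks1b (0.0605) and Fbxw7 (0.235) were lost in edgeR. Without control 2 those of Rbl1 (0.378), E2f3 (0.0741), Ccna2 (0.0959) and Fbxw7 (0.0683) were lost. Without Lhx2 cKO 1 E2f1 (0.0674) and E2f3 (0.0699) were lost, and without Lhx2 cKO 2 Rbl1 (0.392), E2f1 (0.146), E2f3 (0.0618), Ccna2 (0.0843) and Fbxw7 (0.311). Each kept its direction.

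**Figure D4:**
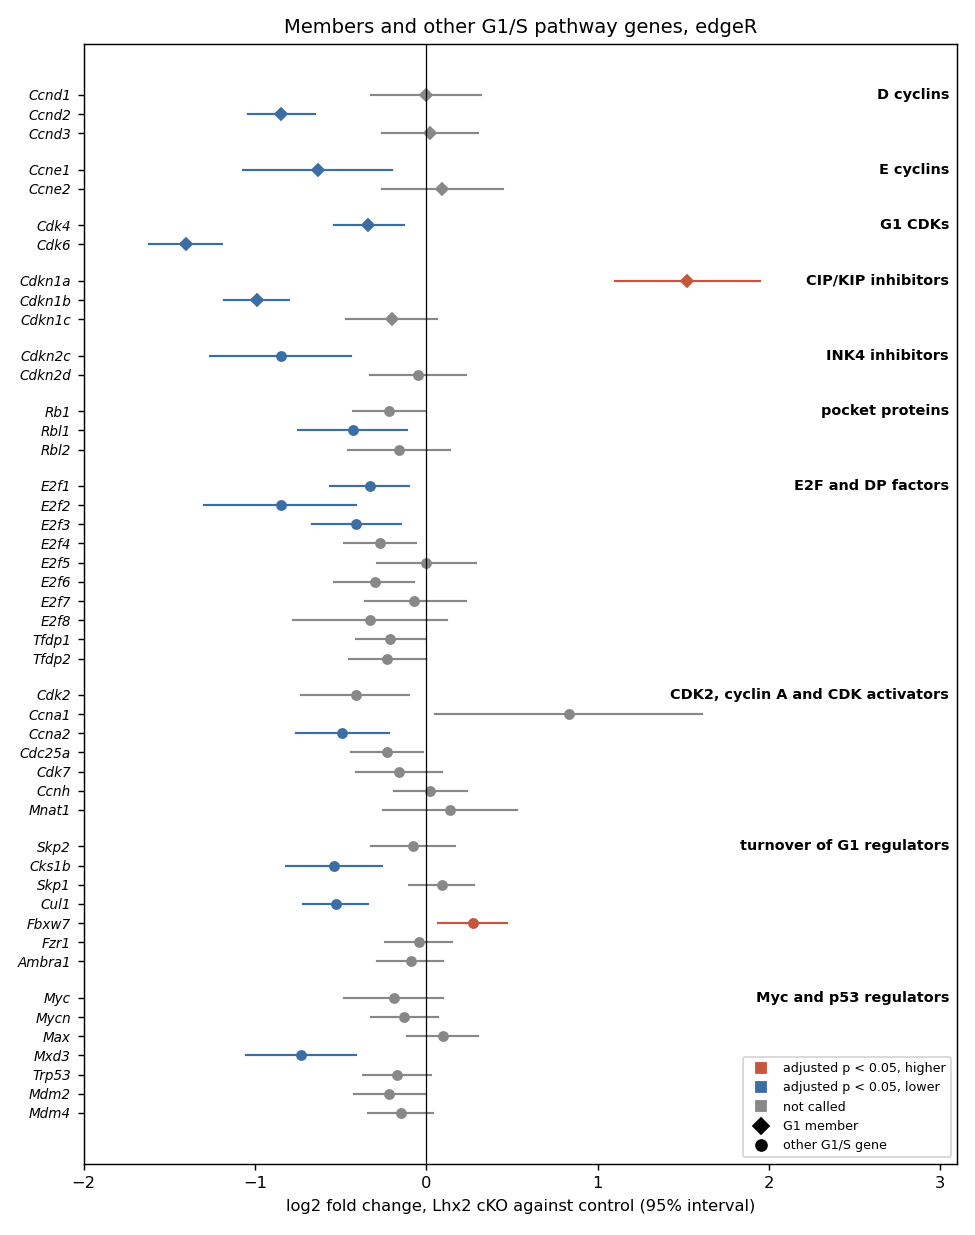
Log2 fold change between Lhx2 cKO and control, positive where Lhx2 cKO is higher, with its 95% interval for the 10 members (diamonds) and 36 other G1/S genes (circles), grouped by role and coloured by call. Cdk6 at -1.40 is the lowest and Cdkn1a at 1.52 the highest.

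Because Cdkn1a is a p53 target, 10 p53 targets were read from the same fit. 5 were called higher and none lower, where 11.6% of all genes tested were called higher and 9.17% lower. The 5 were Eda2r at 2.61, Phlda3 at 0.99, Sesn2 at 0.89, Ccng1 at 0.75 and Aen at 0.33 on the log2 scale. Eda2r, a receptor of the tumour necrosis factor family, was at 0.412 and 1.04 CPM in control and at 3.65 and 5.31 CPM in Lhx2 cKO. Mdm2, Zmat3, Trp53inp1, Bax and Bbc3 were not called, with log2 fold changes from -0.26 to 0.06. The median over the 10 was 0.20. A part of p53 in the higher level of Cdkn1a was not tested. The call of Aen was lost without control 1 (adjusted p 0.155) and without Lhx2 cKO 2 (0.175), and that of Phlda3 without control 2 (0.0563), while Eda2r, Sesn2 and Ccng1 kept theirs in edgeR with any library left out.

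Markers of other cell types that can express these genes also moved. The counts below stand beside 11.6% higher and 9.17% lower over all genes tested. All 6 microglia genes were called higher, with the smallest p for C1qb, at 1.35, and C1qc, at 1.40, with a summed level of 107 and 105 CPM in control and 214 and 241 CPM in Lhx2 cKO. The 5 endothelial genes were all called higher, among them Cldn5 and Cdh5, with sums of 128 and 158 against 203 and 235 CPM. Of 5 oligodendrocyte precursor genes 4 were called higher, among them Egfr and Olig1, with sums of 20.3 and 22.4 against 50.4 and 58.9 CPM. Sox10, at 0.58, was the one not called, and its groups overlapped. Of 5 interneuron genes Sst and Gad2 were called higher, and the list had sums of 161 and 150 against 217 and 215 CPM. Gad1, at -0.07, Dlx1, at 0.07, and Dlx2, at 0.35, were not called, so a rise was not shared by the whole list. The mean of Sst alone was 42.3 against 89.2 CPM. The 4 Cajal-Retzius genes were called higher, among them Ndnf and Reln, with sums of 288 and 319 against 439 and 560 CPM. Among the 4 meningeal and pericyte genes analysed here, Col1a1, at -3.00, and Rgs5, at -0.34, were called lower. Col1a2, at 0.25, and Pdgfrb, at 0.06, were not called, so the list has no common direction. Its sums were 138 and 134 against 103 CPM in each Lhx2 cKO library. Of 6 red cell genes 5 were called lower and 1 higher, with sums of 3170 and 2340 against 2130 and 1900 CPM. Of the 6 neuron genes Stmn2 was called higher and Neurod6 lower. No marker analysed was at 0 in any library, and the part of these cell types in the members' values was not tested.

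In the GENCODE M21 annotation the exons of 8 members overlap a gene on the opposite strand, the exceptions being Ccne1 and Cdkn1b. The use of strand in counting is not given in the sources used here, so reads of these pairs cannot be told apart with certainty. Overlapping protein-coding genes with values were Tspan31 for Cdk4, at 63.4 CPM in control and a log2 fold change of -0.09, Bysl for Ccnd3, at 28.9 CPM and 0.09, and Ints8 for Ccne2, at 34.4 CPM and -0.26. None of these 3 passed the test in edgeR, with adjusted p from 0.103 to 0.672.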

How the data were processed

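Polyadenylated RNA of E15 mouse cortex was measured in 2 control and 2 Lhx2 cKO libraries, grouped by title. The authors deposited raw read counts per gene, with gene length. Trim Galore, Subread, featureCounts, edgeR and the build mm39 are named in the submitters' processing notes, while the annotation and strand setting are not given in the sources used here. Per the file headers, the authors' log2 fold change, mean log2 CPM, p-value, adjusted p-value and -log10 of it stand beside the counts.

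The counts were tested with edgeR 4.0.16 in R 4.3.3: TMM scaling, filterByExpr with a minimum of 10 counts (1 gene removed), and the quasi-likelihood test without covariates, two-sided, with Benjamini-Hochberg adjustment over 13288 genes. SEs were derived from the fold change and its F statistic, and 95% intervals use 40.7 degrees of freedom. RPKM used TMM-scaled totals and the deposited length. Log2 CPM used a prior count of 2. The fit was tested on simulated data. Floors and intervals cover counting error and spread between libraries, without molecular identifiers. Counts of the replicates did not match within sampling noise in either group (chi-square over degrees of freedom 13.9 and 14.3). Each library was treated as a replicate, although this check cannot tell separate embryos from separate preparations of the same pool.

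The members and lists were chosen with earlier results of these data known. All 10 members were named. In each pathway list the called genes with the smallest p were named, up to 4, with partners in a complex, and in each marker list up to 2. The p53 targets called, and members of a list given without a call, were named after their values were seen. Alternatives were 3 scalings, 2 filters, a replicate block, DESeq2 1.42.0, limma-voom from limma 3.58.1, a threshold of 0.01 and leaving out each library. Promoters are from RefSeq and searched in the 250 bases upstream. 1 marker gene is not reported here. No likeness of pattern to other genes was computed over 4 libraries.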

Additional observations from a re-analysis of the deposited data

How the results depend on the processing

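Ccnd2, Cdk6, Cdkn1b and Cdkn1a kept their direction and an adjusted p under 0.05 in each of the 12 alternatives with a refit, including the omission of any 1 library. With all libraries, 6 members were called under each edgeR alternative and limma-voom at 0.05, 5 with DESeq2, where Ccne1 was lost (0.0888), and 4 at an adjusted p under 0.01. Leaving out 1 library, with the lone library of a group assumed to vary like the other group, gave 4 to 7 members, 5 to 9 other G1/S genes against 10, and 1633 to 2396 genes in all against 2758. The lowest totals came without Lhx2 cKO 2 (1633) and without control 1 (1790), each with 5 other G1/S genes. The threshold of 0.01 gave 6 other G1/S genes and 1697 genes in all. The cause was not tested, beyond fewer libraries or a stricter threshold.

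Log2 fold changes against control turned sign only for members that were not called. Ccnd1 was at 0.001 with upper-quartile factors and 0.006 with a mean count of at least 50, and ranged from -0.072 to 0.064 with 1 library left out. Over the same omissions Ccnd3 ranged from -0.103 to 0.144, Ccne2 from -0.098 to 0.301 and Cdkn1c from -0.528 to 0.201. The level relative to progenitor genes turned sign for called members too: with the cell cycle phase genes in place of the radial glia genes, Ccne1 was at 0.001 against -0.484 and Cdk4 at 0.322 against -0.163. The labels do not say whether the replicate numbers pair libraries. The deviations of replicate 1 from replicate 2 in both groups had a correlation of 0.001 across genes, which cannot exclude a pairing that affects few genes. The replicate block gave 2874 called genes, 6 members and 9 other G1/S genes, Rbl1 being lost (adjusted p 0.0517). Rbl1 was also lost with a mean count of at least 50, limma-voom and DESeq2 (0.0515 to 0.125), Fbxw7 with library totals and DESeq2 (0.0765 and 0.0754) and E2f1 with DESeq2 (0.0803).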
